A study of Homo sapiens with 23 samples.

Results

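This account covers 34 genes of the unfolded protein response and the integrated stress response, followed in nascent transcription after the degradation of TRPS1 in T47D cells. The members were chosen by name: a row of the gene count table counted as a member where its Ensembl identifier carries one of 34 listed symbols in GENCODE v44, and all 34 were found among the 60605 rows. T47D is a luminal, estrogen receptor-positive breast cancer cell line, and the libraries came from a single clone, Clone 28, in which a degron (dTAG) was inserted at the endogenous TRPS1 locus. Only tagged TRPS1 protein is made in this clone, and some of its TRPS1 copies are knocked out, in the DMSO libraries as in the treated ones. The compounds dTAG-13 and dTAG-V-1, at 50 nM each, recruit ubiquitin ligases to the tagged protein, and together they are called dTAG here. Precision run-on sequencing (PRO-seq), which reads out engaged RNA polymerases and not the standing mRNA, was done on 23 libraries: 4 with the vehicle DMSO for 24 h, 4 each after 0.5, 1, 2 and 4 h of dTAG, and 3 (replicates 2, 3 and 4) after 24 h. The degradation acts on the protein, so the count of the TRPS1 gene does not check it.

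The unfolded protein response is set off when unfolded proteins build up in the endoplasmic reticulum (ER). Its sensors are ATF6, a membrane-bound transcription factor that is cut free, IRE1 (gene ERN1), a kinase and RNase that splices XBP1 mRNA, and PERK (gene EIF2AK3), a kinase of the translation factor eIF2. Phosphorylated eIF2 is also the hub of the integrated stress response, in which ATF4 is translated and turns on genes of amino acid supply, redox defense and, through CHOP (gene DDIT3), cell death. Luminal breast cancer cells carry a heavy secretory load, and estrogen is known to engage the unfolded protein response in them.

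Library depth ran from 4408544 to 17571616 counts, with a median of 9768427. Mitochondrial genes took 1.73% to 6.50% of the counts, and the highest share stood in the 4 h library of replicate 1, which was also the shallowest, with the next highest at 4.24%. The 34 members together took between 0.1865% and 0.2096% of each library's counts, and all 34 passed the filter on low counts that kept 26057 genes. All 10 luminal markers (ESR1, PGR, GATA3, FOXA1, SPDEF, KRT8, KRT18, KRT19, EPCAM and CDH1) were transcribed, each with 136 or more counts in every library. Of 11 basal, stromal, immune and endothelial markers, 7 passed the filter, and KRT5, KRT14 and CD3E had 0 counts in at least 1 library. The summed level of these 7 was 48.5 to 55.1 CPM with DMSO and 60.6 to 64.2 CPM at 24 h, without overlap, and did not overlap DMSO at 2 h either (55.4 to 63.5 CPM). TP63, a basal transcription factor gene, carried most of the shift, with 18.3 to 20.8 CPM with DMSO and 26.8 to 29.5 CPM at 24 h. It lay above all DMSO libraries at every time point. The means of CD68 (10.1 CPM with DMSO and 12.2 CPM at 24 h), VWF (2.68 and 3.20 CPM), PECAM1 (1.24 and 1.67 CPM) and VIM (1.41 and 1.47 CPM) were also higher at 24 h. Those of COL1A1 and PTPRC were lower at 24 h than with DMSO. The summed level of the luminal markers was 6931 to 7681 CPM with DMSO and 6381 to 7040 CPM at 24 h. At 1 h it was 6500 to 6899 CPM, below every DMSO library, and at the other time points it overlapped DMSO. GATA3 lay below all DMSO libraries at every time point (1077 to 1113 CPM with DMSO and 1019 to 1074 CPM at 24 h). So did SPDEF from 0.5 to 4 h, KRT19 at 1 and 24 h and KRT8 at 24 h, while EPCAM lay above at 4 h. The part of these shifts in the results was not tested. CPM here is edgeR's cpm value, a library's counts put on a common scale with TMM factors. Per the study's methods, the replicates were handled at different times within a day, and the treatments were collected simultaneously. Same-numbered libraries were taken as collected together, so each comparison is given both without and with the replicate number as a block. These replicates are cultures of 1 clone, and p-values measure the spread between such cultures.

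Promoters of the response hold known elements that bind its transcription factors, and the windows below show some of them, for members whose levels are described in these results. The 3 elements described here were searched on both strands of the RefSeq promoter windows (GRCh38.p14, 250 bases before to 50 after the start): the ER stress element ERSE (CCAAT and CCACG with 9 bases of any kind between them), which binds ATF6 and XBP1 with NF-Y, ERSE-II (ATTGG and CCACG with 1 base of any kind between them), and the composite element CARE (TGATGNAA), which binds ATF4 with a C/EBP partner. Of the 34 members, 33 matched an entry, with SLC7A11 the exception. A gene counted as holding an element where any of its promoter entries did. ERSE was found in 6 members (HSPA5, HSP90B1, CRELD2, PDIA6, CALR and CANX), against 0.0916% of 27305 genes with an entry. ERSE-II was found in 3 members (HYOU1, SDF2L1 and HERPUD1), against 0.0696% of these genes. CARE, a short motif, was found in 4 members (HERPUD1, CEBPG, CHAC1 and ASNS), against 4.46% of these genes. Each window is written 5′ to 3′ along the gene's strand, with the matched element (or its reverse complement) in capitals and 10 bases on either side. HSP90B1 and HYOU1 hold 2 matches each, of which 1 is shown.
HSPA5, ERSE, chr9:125241381-125241419, minus strand: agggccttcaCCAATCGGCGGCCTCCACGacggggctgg
HSP90B1, ERSE, chr12:103930206-103930244, plus strand: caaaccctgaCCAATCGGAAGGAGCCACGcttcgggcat
CALR, ERSE, chr19:12938374-12938412, plus strand: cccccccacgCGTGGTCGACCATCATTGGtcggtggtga
CANX, ERSE, chr5:179698768-179698806, plus strand: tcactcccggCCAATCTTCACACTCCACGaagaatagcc
CRELD2, ERSE, chr22:49918544-49918582, plus strand: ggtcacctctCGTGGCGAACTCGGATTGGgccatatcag
HYOU1, ERSE-II, chr11:119057264-119057294, minus strand: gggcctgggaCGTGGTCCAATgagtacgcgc
HERPUD1, ERSE-II, chr16:56932015-56932045, plus strand: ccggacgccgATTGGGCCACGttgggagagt
HERPUD1, CARE, chr16:56931956-56931983, plus strand: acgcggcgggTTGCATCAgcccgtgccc
CHAC1, CARE, chr15:40953252-40953279, plus strand: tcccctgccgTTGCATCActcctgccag
ASNS, CARE, chr7:97872459-97872486, minus strand: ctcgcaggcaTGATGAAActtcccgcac

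With DMSO, the members spanned a wide range of transcription. On a scale of CPM per kilobase of gene, CEBPB (24.8), ATF4 (22.4) and HSPA5 (13.8) were the highest, and PSAT1 (0.0291), SLC7A11 (0.105) and PHGDH (0.277) the lowest. CEBPB stood at percentile 97.4 of all kept genes and PSAT1, a serine synthesis enzyme, at percentile 12.5. Of the sensors, EIF2AK3 lay at 0.565, ERN1 at 0.752 and ATF6 at 0.920 CPM per kilobase of gene. The short genes CEBPB, ATF4 and HSPA5 thus carried more polymerase per kilobase than the 3 sensor genes, and 3 genes of amino acid supply were at the bottom of the range. PSAT1 had a mean of 11.4 counts per library, so its values are the least precise.

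**Figure D1:**
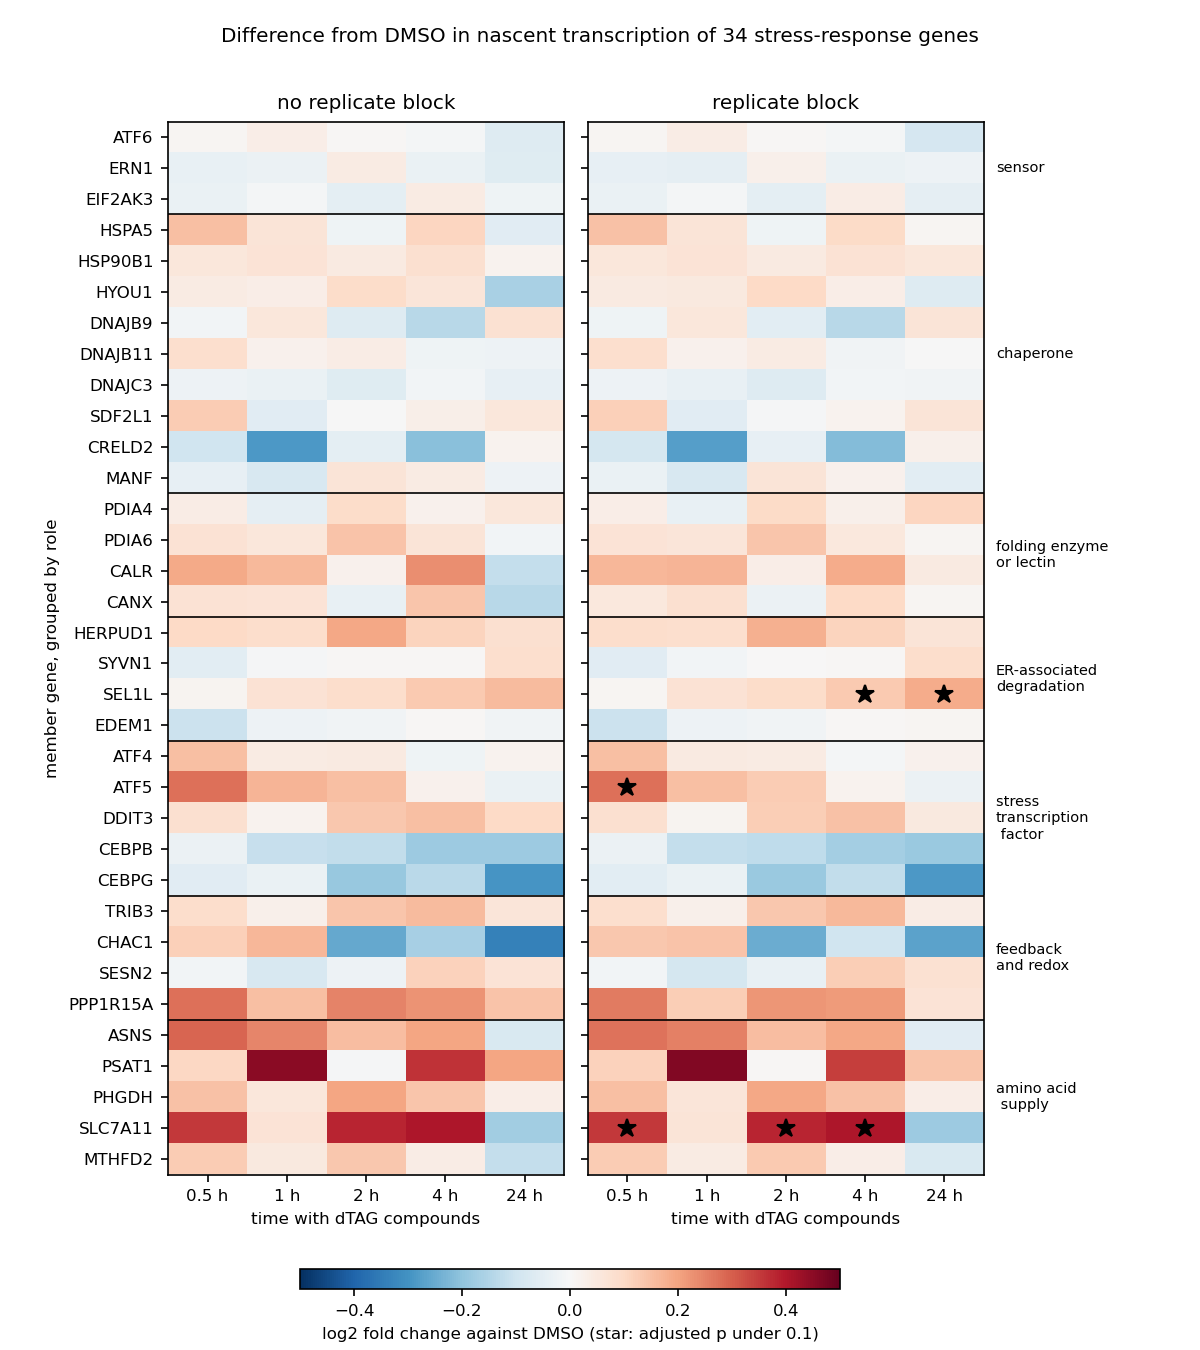
Log2 fold change against DMSO (color, from -0.5 to 0.5) of the 34 members, in rows grouped by role, at the 5 time points with dTAG, in columns, fitted without (left) and with (right) the replicate number as a block. Stars mark an adjusted p under 0.1: 0 on the left and 6 on the right, with SLC7A11 marked at 0.5, 2 and 4 h, ATF5 at 0.5 h and SEL1L at 4 and 24 h.

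The first question was whether either response was set off after dTAG was added. Every library came from the tagged clone, so the loss of TRPS1 and any other effect of the compounds cannot be told apart. DMSO was present for 24 h, so up to 4 h the time since addition differed as well. No member passed an adjusted p of 0.1 against DMSO at any of the 5 time points without the block, by edgeR's quasi-likelihood test or by DESeq2. DESeq2 gave no adjusted p for SDF2L1, CHAC1 and PSAT1 at any time point or over the time course. It also gave none at 0.5 h for DNAJB9 and SLC7A11 (unadjusted p = 0.0111 for SLC7A11), so it could not call these. Over all genes, the shares edgeR called at 0.5, 1, 2, 4 and 24 h were 0.476%, 1.25%, 0.733%, 0.833% and 0.863%. At an unadjusted p under 0.05, edgeR counted 4, 1, 5, 5 and 2 of the 34 members at 0.5, 1, 2, 4 and 24 h, beside 7.68%, 9.42%, 7.1%, 7.47% and 7.38% of all genes. DESeq2 counted 2, 1, 4, 3 and 2 members at that level. A joint test of the early time points, 0.5 to 4 h, called 0 of 34 members, beside 1.33% of 25255 genes, and 2 members had an unadjusted p under 0.05, beside 8.51% of genes (1 by DESeq2, which also called 0).

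With the replicate block, a few members crossed the threshold, all of them upward. The blocked fit called 2 members at 0.5 h (ATF5 and SLC7A11), beside 2.48% of all genes. None of the 34 was called at 1 h, beside 3.25%, and 3 had an unadjusted p under 0.05, beside 13.4% (DESeq2 with the block called 0, with 1 at that level). At 1 h DESeq2 with the block gave no adjusted p for DNAJB9, SDF2L1, CHAC1, PSAT1 and SLC7A11. SLC7A11 was the 1 member called at 2 h, beside 2.43%, and SLC7A11 and SEL1L the 2 called at 4 h, beside 2.49%. SEL1L was the 1 member called at 24 h, beside 2.65%. SLC7A11 was the 1 member called over the time course to 4 h, beside 4.6% of genes (adjusted p = 0.0285).

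The members leaned slightly upward at the early time points. Without the block, 23, 22, 21, 24 and 15 of the 34 had a positive log2 fold change at 0.5, 1, 2, 4 and 24 h, where 53.2%, 52.6%, 51.0%, 54.7% and 50.9% of all genes did. The median log2 fold change of the members was 0.073, 0.039, 0.039, 0.040 and -0.019 at these times, against 0.0098, 0.0090, 0.0031, 0.014 and 0.0026 over all genes. With the block the 24 h median was 0.011, and 20 of 34 members were positive. All treated libraries lay above all DMSO libraries for 2 members each at 0.5, 2 and 4 h, 0 at 1 h and 1 at 24 h, beside 2.58%, 2.65%, 2.51%, 2.46% and 5.22% of all genes. All lay below for 0 members from 0.5 to 4 h and for 2 at 24 h, beside 2.39%, 2.91%, 2.2%, 1.92% and 4.27% of all genes at 0.5, 1, 2, 4 and 24 h. The intervals are a guide to how large a missed change could be. Of 170 contrasts of a member with DMSO, 143 had a 95% interval within 0.5 of 0 on the log2 scale without the block. With the block 158 did. Within 0.25 lay 67 and 103. For some members the interval is narrower than the p-value implies, so these counts may be too high. DNAJB9 at 2 h without the block was at -0.06 ± 0.09 (SE), with an unadjusted p of 0.662 by edgeR. The plot of log2 fold changes by role shows pale cells for the sensors and most chaperones, and the darkest cells in the rows of PSAT1, SLC7A11 and CHAC1.

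None of the 3 sensor genes passed the threshold at any time point in either fit. Values below are in the order of replicates 1 to 4, and 2 to 4 at 24 h. ATF6 read 194, 176, 212 and 195 with DMSO, 192, 177, 208 and 207 at 0.5 h, 192, 197, 203 and 204 at 1 h, 185, 181, 203 and 213 at 2 h, 183, 185, 203 and 200.02 at 4 h and 166, 191 and 200.3 at 24 h (CPM). ERN1 read 72.7, 72.4, 67.4 and 63.4 with DMSO, 73.6, 71.8, 65.0 and 58.7 at 0.5 h, 79.7, 69.3, 62.1 and 59.3 at 1 h, 81.7, 79.6, 61.4 and 61.2 at 2 h, 68.0, 78.7, 60.5 and 62.4 at 4 h and 75.2, 60.9 and 62.3 at 24 h (CPM). EIF2AK3 read 75.3, 70.9, 79.7 and 78.7 with DMSO, 69.5, 75.4, 76.6 and 76.3 at 0.5 h, 72.6, 71.2, 78.9 and 80.1 at 1 h, 68.3, 73.2, 73.5 and 79.6 at 2 h, 75.2, 73.0, 82.2 and 82.8 at 4 h and 72.1, 75.0 and 77.9 at 24 h (CPM). The treated values of each sensor overlapped the DMSO values at every time point. Over the 15 sensor contrasts, log2 fold changes ran from -0.07 (ATF6 at 24 h) to 0.04 (EIF2AK3 at 4 h) without the block, and the smallest adjusted p was 0.927 (0.475 with the block). All 15 blocked intervals lay within 0.25 of 0 on the log2 scale, the outermost bounds being -0.17 and 0.13. XBP1, the substrate of IRE1, is taken up with the other genes of the pathways.

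**Figure D2:**
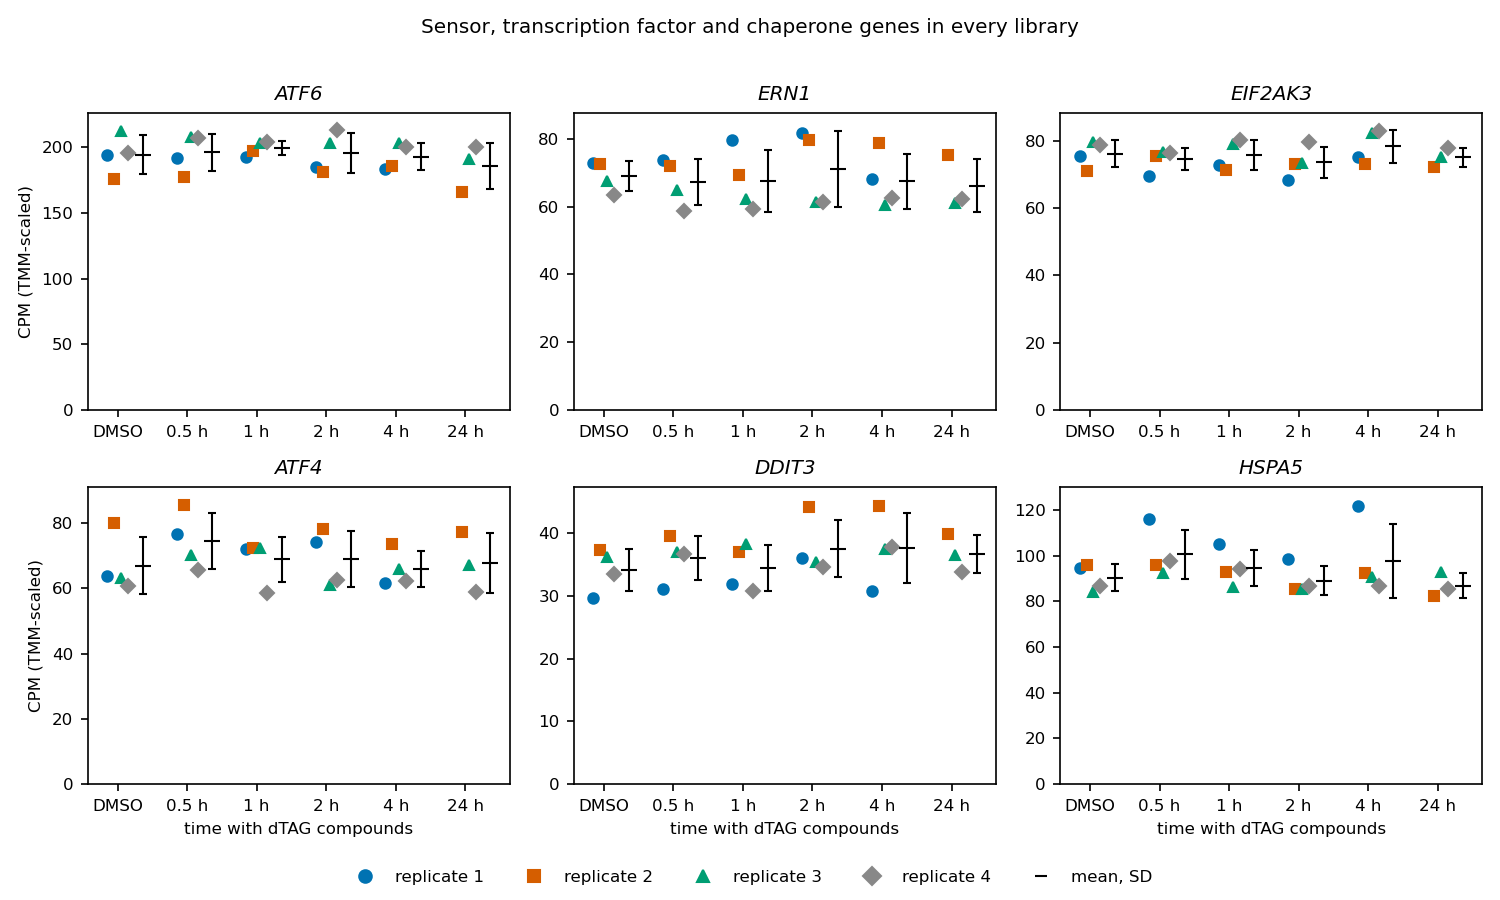
CPM (vertical axis, from 0) of the sensor genes ATF6, ERN1 and EIF2AK3, the transcription factor genes ATF4 and DDIT3 and the chaperone gene HSPA5 in each library, by treatment group (horizontal axis). Points are libraries, with color and shape giving the replicate number, and bars are the group mean and SD (n = 4, or 3 at 24 h). The treated groups overlap the DMSO group for all 6 genes, and replicate 2 is the highest library for ATF4 in all 6 groups.

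Among the stress transcription factors, ATF4 and DDIT3 did not pass the threshold, and ATF5, a close relative of ATF4, did so at 0.5 h with the block. ATF4 read 63.9, 80.1, 63.3 and 60.9 with DMSO, 76.6, 85.5, 70.3 and 65.6 at 0.5 h, 72.2, 72.3, 72.3 and 58.7 at 1 h, 74.2, 78.3, 61.0 and 62.7 at 2 h, 61.6, 73.7, 66.0 and 62.3 at 4 h and 77.2, 67.1 and 59.0 at 24 h (CPM). DDIT3, which encodes CHOP, read 29.7, 37.3, 36.1 and 33.5 with DMSO, 31.2, 39.6, 37.0 and 36.7 at 0.5 h, 31.9, 37.0, 38.3 and 30.8 at 1 h, 36.0, 44.2, 35.4 and 34.6 at 2 h, 30.8, 44.4, 37.6 and 37.8 at 4 h and 39.9, 36.6 and 33.8 at 24 h (CPM). Replicate 2 was the highest library of ATF4 in all 6 groups and of DDIT3 in 5 of 6. ATF4 differed most from DMSO at 0.5 h, higher in 4 of 4 replicate pairs, with a log2 fold change of 0.15 ± 0.11 (SE; adjusted p = 0.861) without the block and 0.15 ± 0.05 (adjusted p = 0.209) with it. DDIT3 was at most 0.15 ± 0.11 above DMSO, at 4 h (adjusted p = 0.900 without the block and 0.335 with it). Of the DDIT3 span, 53.8% is shared with ENSG00000285133 on the same strand and 19.1% with MARS1 on the opposite strand, so its level is uncertain.

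ATF5 (ENSG00000169136, chr19:49928702-49933935, plus strand, hg38) read 19.2, 21.5, 19.0 and 19.2 with DMSO, 25.4, 24.2, 22.9 and 23.1 at 0.5 h, 24.2, 25.1, 20.4 and 18.8 at 1 h, 23.6, 27.2, 19.7 and 17.2 at 2 h, 20.7, 22.6, 19.6 and 17.3 at 4 h and 24.2, 18.5 and 15.5 at 24 h (CPM). At 0.5 h all 4 libraries lay above the 4 DMSO libraries, while from 1 h on the groups overlapped. The 0.5 h log2 fold change of ATF5 was 0.28 ± 0.13 (SE; adjusted p = 0.664) without the block and 0.28 ± 0.08 (adjusted p = 0.0948) with it, and the gene was higher in 4 of 4 pairs. That call was lost when any 1 replicate number was left out of the blocked fit, with adjusted p-values of 0.231, 0.142, 0.440 and 0.202 without replicates 1 to 4 in turn. At 24 h the log2 fold change was -0.03 ± 0.09 with the block. The whole span of ATF5 lies within a gene on the opposite strand, ENSG00000269179, with a mean of 474 counts per library against 218 for ATF5, and whether counting used strand is not stated in the sources used here. The table itself bears on it: of nested gene pairs with a summed count of 1000 or more, the nested gene had more counts than its host in 259 of 9940 pairs on opposite strands and in 12 of 7772 on the same strand.

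The C/EBP genes CEBPB and CEBPG, whose proteins pair with ATF4, had the lowest log2 fold changes of this role. CEBPG ran from 13.0 to 17.7 CPM with DMSO and from 11.7 to 12.7 CPM at 24 h, so that the 3 late libraries lay below all 4 DMSO libraries, and its log2 fold change was -0.29 ± 0.12 (SE; adjusted p = 0.499, and 0.321 with the block). CEBPB ran from 43.3 to 48.7 CPM with DMSO and from 36.4 to 42.6 CPM at 24 h, again without overlap, and its log2 fold change was -0.18 ± 0.10 (adjusted p = 0.774, and 0.308 with the block). Neither passed the threshold, and 4.27% of all genes had every 24 h library below every DMSO library. Both genes were singled out after their values were seen.

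None of the 9 ER chaperone and co-chaperone genes passed the threshold at any time point in either edgeR fit. HSPA5, which encodes BiP, the chief ER chaperone and a standard readout of the response, read 94.7, 96.0, 84.2 and 86.9 with DMSO, 116, 95.8, 92.5 and 97.7 at 0.5 h, 105, 93.0, 86.2 and 94.4 at 1 h, 98.7, 85.4, 85.5 and 86.8 at 2 h, 122, 92.3, 90.6 and 86.6 at 4 h and 82.4, 92.8 and 85.6 at 24 h (CPM). Its values with dTAG overlapped those with DMSO at each time point, and the 0.5 h and 4 h libraries of replicate 1 were the highest. The log2 fold change of HSPA5 was 0.15 ± 0.09 (SE; adjusted p = 0.788) at 0.5 h and -0.06 ± 0.10 (adjusted p = 0.974) at 24 h. With the block these were 0.15 ± 0.05 (adjusted p = 0.218) and 0.01 ± 0.06 (adjusted p = 1.00), and the upper bound of the 95% interval at 24 h was 0.13. Over the time course to 4 h, DESeq2 with the block called HSPA5 (adjusted p = 0.0640), which edgeR with the block did not. CRELD2, an ER protein of the folding pathway and a sensitive marker of ER stress, read 14.5, 14.4, 12.1 and 13.9 with DMSO, 11.8, 13.6, 12.9 and 12.6 at 0.5 h, 11.0, 10.3, 12.1 and 11.4 at 1 h, 12.8, 12.8, 12.2 and 15.1 at 2 h, 13.5, 13.1, 11.0 and 10.2 at 4 h and 15.1, 12.6 and 14.0 at 24 h (CPM). CRELD2 had the lowest log2 fold change of this role, -0.29 ± 0.10 (adjusted p = 0.325, and 0.211 with the block) at 1 h, when 3 of 4 libraries were below the lowest DMSO library. Over the 45 chaperone contrasts without the block, log2 fold changes ran from -0.29 to 0.15, and all 45 edgeR intervals lay within 0.5 of 0. DESeq2 gave a larger SE for SDF2L1 at 0.5 h, 0.197 against 0.144 by edgeR, so this need not hold for SDF2L1.

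The folding enzymes PDIA4 and PDIA6 and the lectins CALR (calreticulin) and CANX (calnexin), which hold glycoproteins during folding, likewise held 0 calls in 20 contrasts. Log2 fold changes without the block ran from -0.14 (CANX at 24 h) to 0.23 (CALR at 4 h), with a smallest adjusted p of 0.620. The spread of CALR and CANX among libraries was wide: CANX ran from 167 to 336 CPM and CALR from 50.7 to 120 CPM over the 23 libraries, and the highest library of each was replicate 1 at 4 h. The 24 h group holds no replicate 1 library, and the 24 h value of CANX moved from -0.14 ± 0.21 (SE) without the block to 0.01 ± 0.08 with it, that of CALR from -0.12 ± 0.24 to 0.04 ± 0.10. The block left the signs at the other time points of CALR and CANX as they were.

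Of the genes of ER-associated degradation, which moves misfolded proteins out of the ER to the proteasome, SEL1L rose at 4 and 24 h with the block. SEL1L, the scaffold of the HRD1 ubiquitin ligase complex (ENSG00000071537, chr14:81471547-81533853, minus strand, hg38), read 184, 163, 181 and 172 with DMSO, 187, 167, 174 and 178 at 0.5 h, 199, 178, 177 and 183 at 1 h, 193, 177, 184 and 192 at 2 h, 211, 183, 188 and 186 at 4 h and 186, 202 and 197 at 24 h (CPM). The 3 libraries at 24 h (186 to 202 CPM) lay above all 4 DMSO libraries (163 to 184 CPM), and the groups overlapped at the other time points. Log2 fold changes with the block were 0.01, 0.07 and 0.09 (SE 0.03 each) at 0.5, 1 and 2 h, then 0.13 ± 0.03 at 4 h (adjusted p = 0.0370) and 0.19 ± 0.03 at 24 h (adjusted p = 0.00289), and SEL1L was higher than DMSO in 3 of 3 pairs at 24 h. Without the block the 24 h value was 0.16 ± 0.06 (adjusted p = 0.398). The blocked 24 h call held when any 1 replicate number was left out (adjusted p from 0.00544 to 0.0805) and with DESeq2 (9.89e-05). The 4 h call did not hold without the 4 h library of replicate 1, which has the high mitochondrial share (log2 fold change 0.11, adjusted p = 0.147), nor without replicate 1, 2 or 4 as a whole (adjusted p = 0.175, 0.342 and 0.193).

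The other members of the degradation machinery stayed under the threshold against DMSO. HERPUD1, an adaptor of the same complex, read 52.4, 48.3, 56.8 and 51.5 with DMSO, 55.2, 60.9, 53.2 and 55.2 at 0.5 h, 54.4, 60.4, 57.8 and 49.5 at 1 h, 64.9, 59.3, 52.6 and 62.6 at 2 h, 49.7, 61.0, 54.8 and 59.8 at 4 h and 59.7, 52.7 and 53.6 at 24 h (CPM). Its log2 fold change was highest at 2 h, 0.19 ± 0.08 (SE; adjusted p = 0.503, and 0.278 with the block). EDEM1, a lectin that hands glycoproteins to degradation, read 54.5, 52.8, 50.5 and 46.9 with DMSO, 49.4, 49.3, 45.8 and 45.4 at 0.5 h, 52.5, 48.1, 50.2 and 50.4 at 1 h, 52.8, 48.4, 49.2 and 51.7 at 2 h, 56.0, 50.9, 48.5 and 51.0 at 4 h and 50.7, 49.4 and 51.6 at 24 h (CPM). EDEM1 was lower than DMSO in 4 of 4 pairs at 0.5 h, by a log2 fold change of -0.11 ± 0.05 (adjusted p = 0.638, and 0.263 with the block), and lay near DMSO from 1 h on. SYVN1, the ligase HRD1 itself, had log2 fold changes from -0.05 at 0.5 h to 0.08 at 24 h without the block, none past the threshold.

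The feedback and redox genes did not pass the threshold at any time point in either edgeR fit. TRIB3, a pseudokinase that restrains ATF4 and CHOP, read 43.4, 48.8, 45.6 and 49.1 with DMSO, 49.4, 53.6, 49.2 and 46.5 at 0.5 h, 43.5, 50.6, 48.3 and 47.5 at 1 h, 52.0, 53.8, 50.0 and 49.9 at 2 h, 45.9, 51.6, 54.9 and 55.2 at 4 h and 52.6, 48.2 and 45.4 at 24 h (CPM). All 4 TRIB3 libraries at 2 h lay above the 4 DMSO libraries, as did 2.65% of all genes, and its log2 fold change was 0.14 ± 0.06 (SE; adjusted p = 0.662) then and 0.16 ± 0.06 (adjusted p = 0.510) at 4 h. Without the 4 h library of replicate 1, the blocked 4 h value was 0.19 with an adjusted p of 0.0927. SESN2, a sestrin that reins in mTORC1, read 19.1, 20.03, 18.9 and 19.7 with DMSO, 19.5, 20.7, 19.5 and 17.3 at 0.5 h, 18.1, 19.6, 16.7 and 19.2 at 1 h, 21.2, 20.9, 17.6 and 16.8 at 2 h, 18.6, 22.3, 21.2 and 21.4 at 4 h and 19.1, 20.8 and 21.0 at 24 h (CPM), with log2 fold changes between -0.08 and 0.11. PPP1R15A, which encodes the eIF2 phosphatase subunit GADD34, was 0.26 ± 0.08 above DMSO at 0.5 h on the log2 scale with the block (adjusted p = 0.124), and DESeq2 with the block called it. CHAC1, which degrades glutathione, ranged from 2.66 to 7.43 CPM, and its intervals were among the widest, down to -0.87 on the log2 scale without the block.

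Amino acid supply was the role with the largest values, and SLC7A11 the member with the most calls. SLC7A11, the cystine importer of system xc- and a target of ATF4 (ENSG00000151012, chr4:138164097-138242349, minus strand, hg38), read 8.83, 7.27, 9.16 and 7.76 with DMSO, 10.3, 10.0, 12.1 and 9.71 at 0.5 h, 8.28, 10.1, 8.22 and 7.94 at 1 h, 10.5, 11.3, 11.9 and 9.50 at 2 h, 10.6, 11.0, 12.1 and 9.98 at 4 h and 7.17, 7.02 and 7.85 at 24 h (CPM). Every library at 0.5, 2 and 4 h (9.50 to 12.1 CPM) lay above every DMSO library (7.27 to 9.16 CPM), whereas the 1 h and 24 h groups overlapped DMSO. Its log2 fold change with the block was 0.35 ± 0.10 (SE; adjusted p = 0.0811) at 0.5 h, 0.07 ± 0.11 (adjusted p = 0.900) at 1 h, 0.38 ± 0.10 (adjusted p = 0.0511) at 2 h, 0.40 ± 0.10 (adjusted p = 0.0422) at 4 h and -0.18 ± 0.11 (adjusted p = 0.608) at 24 h. Without the block the values were nearly the same, 0.35, 0.07, 0.38, 0.40 and -0.17, and the adjusted p-values 0.219, 0.973, 0.141, 0.105 and 0.846. SLC7A11 was higher in 4 of 4 pairs at 0.5, 2 and 4 h and in 2 of 4 at 1 h, and its level rests on a mean of 100.1 counts per library.

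The SLC7A11 calls against DMSO depended on the libraries and the tool. In the blocked fit they were lost at 0.5 h when any 1 replicate number was left out (adjusted p from 0.120 to 0.390), and at 2 and 4 h when replicate 2, 3 or 4 was (adjusted p from 0.174 to 0.344), but not without replicate 1 (0.0852 and 0.0729). DESeq2 with the block called SLC7A11 at 4 h (adjusted p = 0.0961) but not at 0.5 h (0.134) or 2 h (0.103). The edgeR calls were kept without the 4 h library of replicate 1 (adjusted p = 0.0854, 0.0566 and 0.0731 at 0.5, 2 and 4 h).

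**Figure D3:**
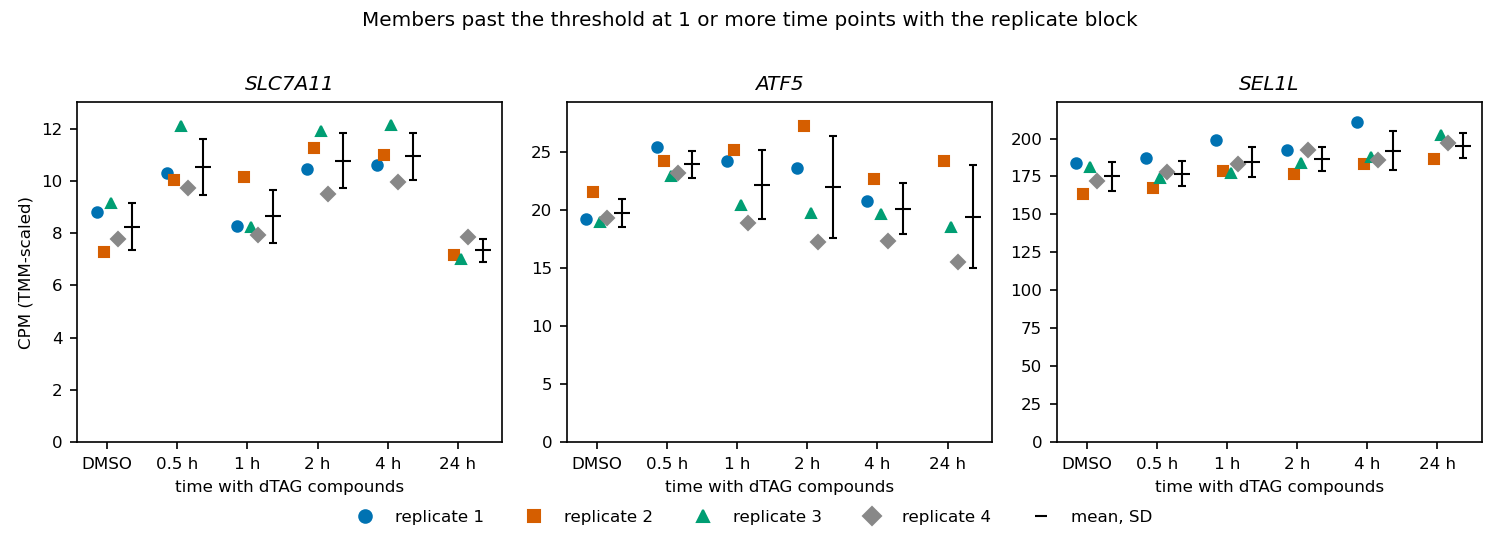
CPM (vertical axis, from 0) of SLC7A11, ATF5 and SEL1L in each library, by treatment group (horizontal axis). Points are libraries, with color and shape giving the replicate number, and bars are the group mean and SD (n = 4, or 3 at 24 h). The SLC7A11 libraries at 0.5, 2 and 4 h sit above all DMSO libraries, the ATF5 libraries do so at 0.5 h, and the SEL1L libraries do so at 24 h.

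The 4 enzymes of this role did not pass the threshold against DMSO. ASNS, asparagine synthetase and a classical ATF4 target, read 10.4, 11.2, 10.9 and 12.1 with DMSO, 17.6, 12.4, 13.4 and 11.8 at 0.5 h, 12.3, 14.5, 15.2 and 10.3 at 1 h, 12.0, 13.0, 12.7 and 11.9 at 2 h, 14.3, 12.9, 12.4 and 12.0 at 4 h and 10.2, 11.6 and 9.96 at 24 h (CPM). Its log2 fold change was 0.29 ± 0.12 (SE; adjusted p = 0.495) at 0.5 h, where replicate 1 was the highest library, and -0.08 ± 0.13 (adjusted p = 0.966) at 24 h. Almost all of the ASNS span (99.9%) is shared with ENSG00000284707, a gene on the same strand with a mean of 617 counts per library against 128 for ASNS, so that the reads of these genes cannot be told apart. PHGDH, the first enzyme of serine synthesis, read 24.9, 29.6, 25.3 and 26.3 with DMSO, 27.8, 30.3, 29.1 and 30.0 at 0.5 h, 27.6, 29.1, 27.5 and 25.9 at 1 h, 31.4, 32.7, 28.8 and 28.7 at 2 h, 27.9, 27.9, 29.7 and 31.0 at 4 h and 26.7, 28.9 and 25.8 at 24 h (CPM), and its log2 fold change was 0.20 ± 0.06 (adjusted p = 0.285, and 0.127 with the block) at 2 h. PSAT1 was 0.45 ± 0.32 above DMSO on the log2 scale at 1 h (adjusted p = 0.790), with a 95% interval up to 1.12. MTHFD2, a mitochondrial folate enzyme, ran from -0.12 at 24 h to 0.13 at 0.5 and 2 h.

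The difference between 24 h and 0.5 h was then tested directly, since both use the same DMSO libraries. Without the block 1 member was called, SLC7A11, beside 1.99% of all genes. SLC7A11 was lower at 24 h than at 0.5 h by a log2 fold change of -0.53 ± 0.11 (SE; adjusted p = 0.0213), and all 3 libraries at 24 h (7.02 to 7.85 CPM) lay below all 4 at 0.5 h (9.71 to 12.1 CPM). With the block 5 members were called, beside 6.34% of all genes. SLC7A11 (-0.53 ± 0.10, adjusted p = 0.00415), ATF5 (-0.30 ± 0.08, adjusted p = 0.0421) and MTHFD2 (-0.20 ± 0.05, adjusted p = 0.0293) fell from 0.5 h to 24 h. SEL1L (0.18 ± 0.03, adjusted p = 0.00396) and SYVN1 (0.14 ± 0.04, adjusted p = 0.0670) rose. The proteins of both belong to the same ligase complex, as does that of HERPUD1, which did not rise (-0.03 ± 0.07, adjusted p = 0.937).

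The call of SLC7A11 without the block was lost without replicate 2, 3 or 4 (adjusted p = 0.145, 0.421 and 0.145). With the block it was lost only without replicate 3, among the 4 left out in turn (-0.39, adjusted p = 0.222). ATF5 lost its blocked call without replicate 3 or 4 (adjusted p = 0.326 and 0.393), MTHFD2 and SYVN1 without replicate 2, 3 or 4 (adjusted p from 0.146 to 0.541), and SEL1L without replicate 3.

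**Figure D4:**
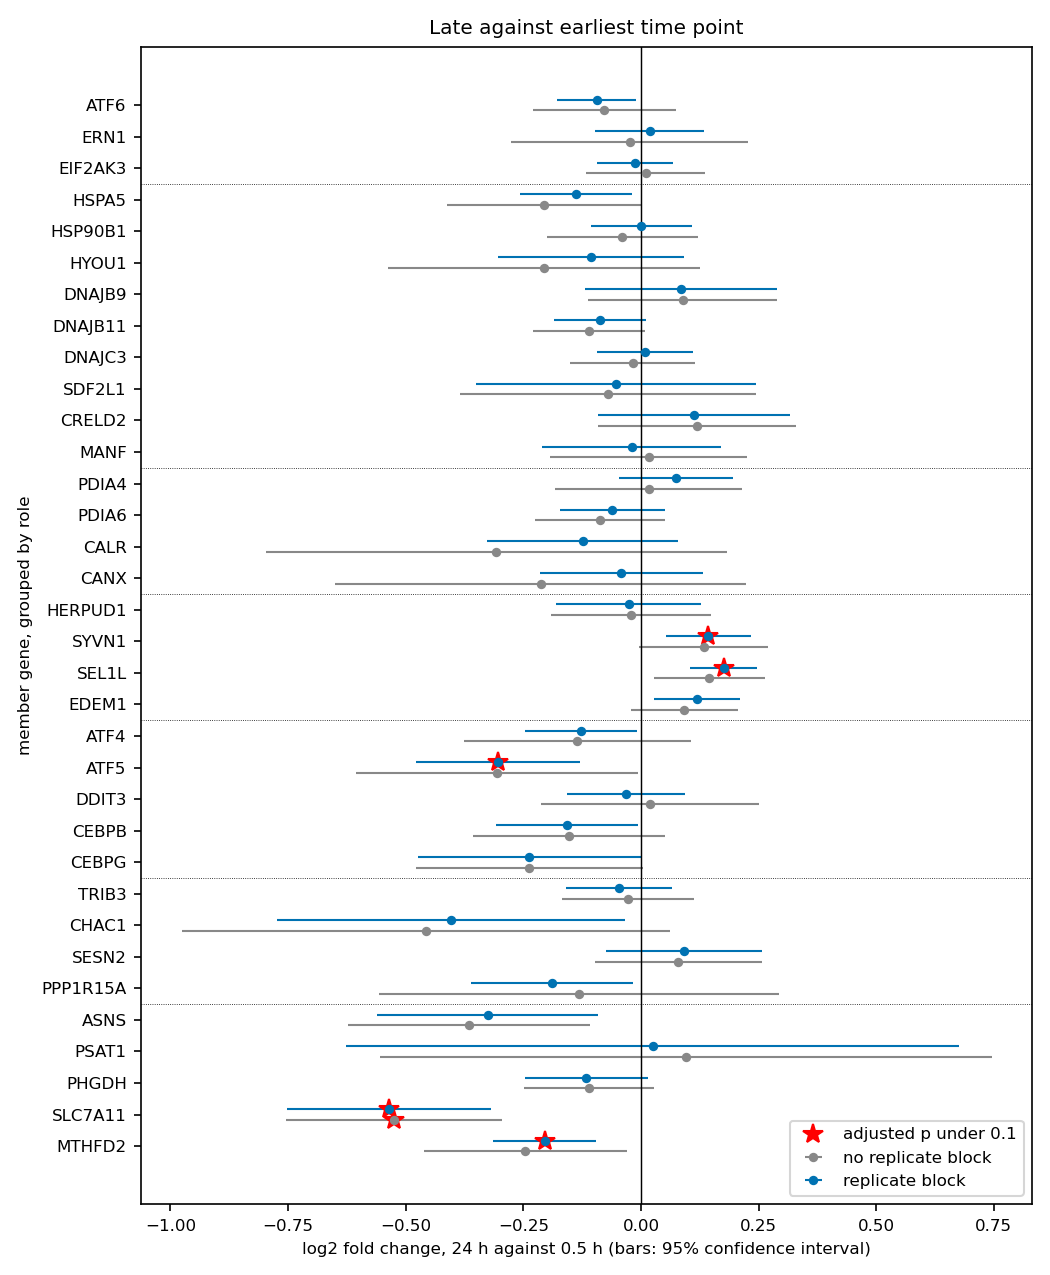
Log2 fold change between 24 h and 0.5 h of dTAG (horizontal axis) for each of the 34 members (vertical axis, grouped by role), without (gray) and with (blue) the replicate number as a block, with bars for the 95% confidence interval. Red stars mark an adjusted p under 0.1: SLC7A11 in both fits, and ATF5, MTHFD2, SEL1L and SYVN1 with the block.

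Many members differed between the replicate numbers. In the blocked fit, an F-test over the replicate numbers called 19 of 34 members, beside 34.7% of all genes. For 22 of 34 members the range over replicate numbers was larger than the largest log2 fold change against DMSO, as it was for 56.6% of kept genes. The lowest adjusted p-values were those of CANX (7.42e-07), PPP1R15A (1.52e-06), CALR (2.52e-06), ERN1 (8.85e-06) and ATF4 (3.37e-05). All 3 sensor genes, 4 of 5 stress transcription factors and 3 of 4 folding enzymes and lectins were among the 19. DESeq2 also called 19, and the count ranged from 14 to 20 when each replicate number was left out.

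The highest replicate number was taken by mean CPM over DMSO to 4 h (5 libraries for each replicate number). Of the 34 members, 10 were called and highest in replicate 1, 7 in replicate 2 and 1 each in replicates 3 and 4. Of all 26057 genes, 13.3%, 7.78%, 6.9% and 6.67% were called and highest in replicates 1 to 4. These are 3470, 2028, 1797 and 1737 of the 9032 genes called. Among the 9 chaperones, HSPA5, HSP90B1, HYOU1 and DNAJC3 were called and highest in replicate 1, as were 3 of the 4 folding enzymes and lectins (PDIA4, CALR and CANX). CRELD2, MANF and SDF2L1 were highest in replicate 2 and DNAJB9 in replicate 4, without a call. CANX averaged 267 ± 45.7 CPM (SD, n = 5) in replicate 1, against 190.1 ± 13.0, 172 ± 2.91 and 178 ± 7.18 CPM (n = 5 each) in replicates 2 to 4. CALR averaged 91.0 ± 19.2, 64.5 ± 4.19, 54.9 ± 2.44 and 58.5 ± 5.91 CPM, and HYOU1, an ER chaperone of the HSP110 family, 47.5 ± 6.66, 36.5 ± 3.87, 35.7 ± 3.18 and 36.6 ± 1.07 CPM. The replicate 1 libraries of CANX, CALR and HYOU1 lay above every other library, DMSO included. The share of all genes with this trait was not counted. HSPA5 averaged 107 CPM in replicate 1 and 87.8 to 92.5 CPM in the others, and was highest in replicate 1 in 4 of the 5 groups that hold it.

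Of the 5 stress transcription factors, ATF4, ATF5, DDIT3 and CEBPB were called and highest in replicate 2, as were PPP1R15A and CHAC1 of the 4 feedback and redox genes. Other genes of the eIF2 and ATF4 branch were highest elsewhere: EIF2AK3 in replicate 4 and MTHFD2 in replicate 1, both called, and ASNS in replicate 1 and SLC7A11 and PSAT1 in replicate 3, without a call. PPP1R15A averaged 40.8 ± 5.48, 55.6 ± 6.95, 46.0 ± 2.85 and 37.5 ± 3.73 CPM (SD) in replicates 1 to 4 and was highest in replicate 2 in 6 of 6 groups. ATF4 averaged 78.0 ± 5.27 CPM in replicate 2 and 62.0 to 69.7 CPM in the others, also highest in replicate 2 in 6 of 6 groups. DDIT3 averaged 40.5 ± 3.64 CPM in replicate 2 and 31.9 to 36.9 CPM in the others. ERN1 was high in both replicates 1 and 2, at 75.1 and 74.4 CPM, against 63.3 and 61.0 CPM in replicates 3 and 4.

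Depth and the mitochondrial share also moved with the replicate number. The median library of replicate 1 had 7001408 counts and a mitochondrial share of 3.75%, against 2.16% to 2.99% in the other replicate numbers. The part of depth and of this share in the differences between replicate numbers was not tested. Without the 4 h library of replicate 1 the F-test again called 19 members, with adjusted p-values of 2.02e-07 for CANX and 1.08e-06 for CALR, and the range over replicate numbers was 0.53 instead of 0.63 on the log2 scale for CANX and 0.60 instead of 0.71 for CALR.

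**Figure D5:**
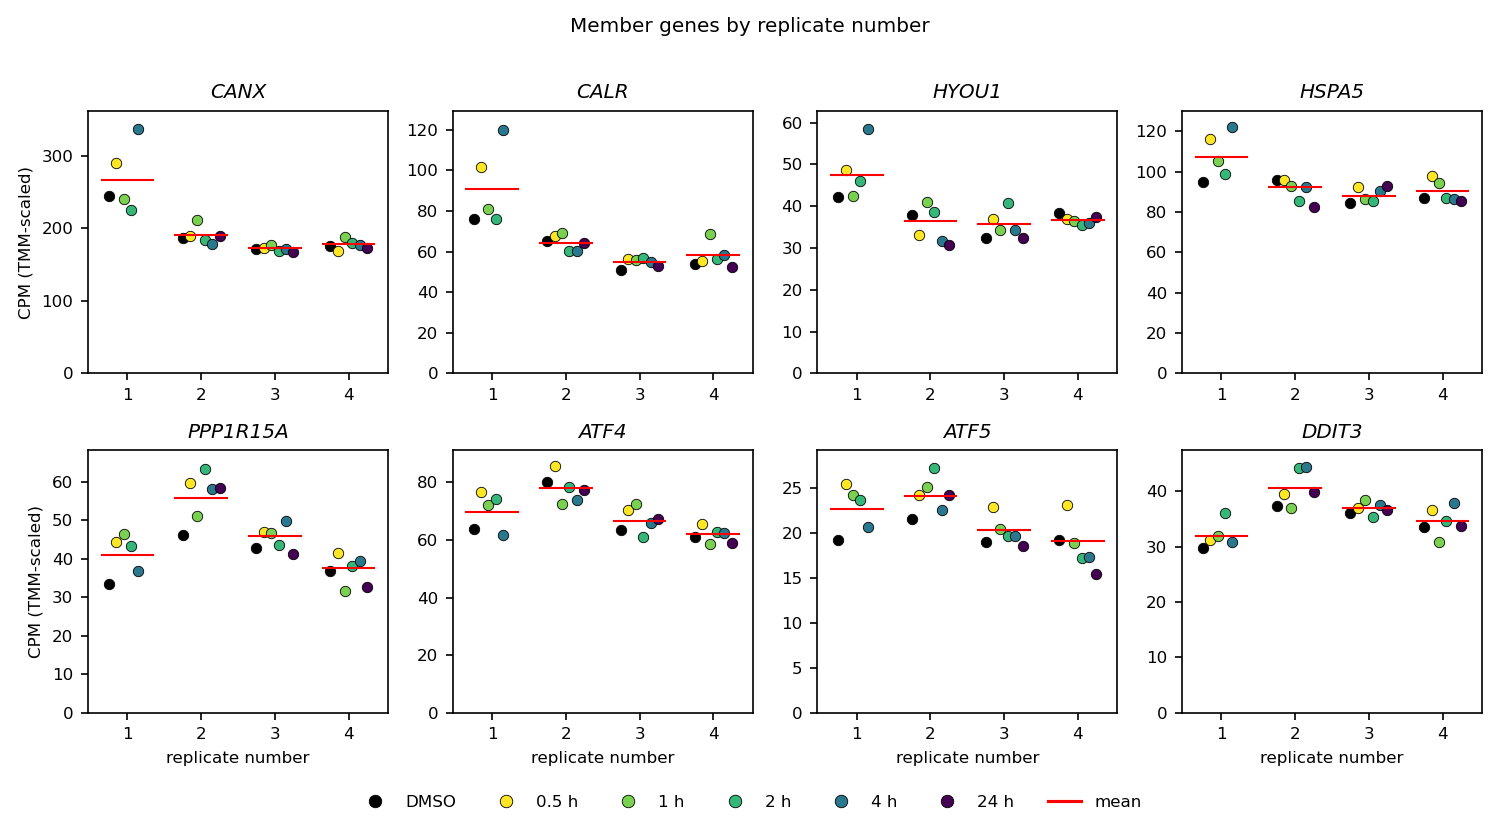
CPM (vertical axis, from 0) of 4 chaperone and lectin genes (CANX, CALR, HYOU1, HSPA5) and 4 genes of the eIF2 and ATF4 branch (PPP1R15A, ATF4, ATF5, DDIT3), by replicate number (horizontal axis). Points are libraries colored by treatment group, and red lines are the mean over the 5 libraries from DMSO to 4 h of a number. By these means the 4 upper genes are highest in replicate 1 and the 4 lower genes in replicate 2, and the 8 were chosen for that pattern.

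The promoter elements shown above can be set beside these values as a description. None of the 9 members with an ERSE or ERSE-II, and none of the 4 with a CARE, was called against DMSO at any time point in either edgeR fit, the smallest blocked adjusted p being 0.211 for the former and 0.273 for the latter. Of the 9, 5 (CALR, CANX, HSP90B1, HSPA5 and HYOU1) differed between replicate numbers, beside 34.7% of all genes, and these 5 were highest in replicate 1. Of the other 4, PDIA6 was highest in replicate 1 and CRELD2, SDF2L1 and HERPUD1 in replicate 2. Of the 21 members with an entry and none of the 3 elements, 13 differed between replicate numbers, and 5 of these (ERN1, MTHFD2, SEL1L, PDIA4 and DNAJC3) were highest in replicate 1. Of the further genes listed below, 83 had a promoter entry, of which 16 held a CARE and 3 an ERSE. MARS1, TARS1, GARS1, AARS1, SLC3A2 and CREB3L2, with a CARE, were called against DMSO by edgeR, without or with the block. XBP1, with an ERSE, was called with the block. The other further genes with an element were not called, and DDIT4, SLC38A2, STC2, YARS1, EIF2S2 and EIF2S3 were called without a match.

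A further 103 genes of both pathways were listed from general knowledge, and 100 passed the filter. Of these, edgeR without the block called 1 at 0.5 h (MARS1), 2 at 1 h (YARS1 and TARS1), 0 at 2 h (13 with an unadjusted p under 0.05; DESeq2 called 1, STC2), 1 at 4 h (SLC38A2) and 2 at 24 h (DDIT4 and SLC38A2), all higher, beside 0.476%, 1.25%, 0.733%, 0.833% and 0.863% of all genes. The 13 stand beside 7.1% of all genes. With the block the counts were 6, 4, 5, 3 and 2 of 100, beside 2.48%, 3.25%, 2.43%, 2.49% and 2.65% of all genes, and 19 of these 20 calls were higher, the exception being XBP1 at 1 h. Median log2 fold changes of the 100 genes were 0.038, 0.014, 0.038, 0.035 and 0.00027 without the block. All treated libraries lay above all DMSO libraries for 6, 4, 7, 4 and 6 of the 100 and below for 0, 2, 0, 1 and 8. From 0.5 to 4 h the shares of all genes were 2.58%, 2.46%, 2.65% and 2.51% above and 2.39%, 2.91%, 2.2% and 1.92% below. The 8 below at 24 h, beside 4.27% of all genes, were STT3A, SSR1, SEC31A, ATF3, SLC7A1, ALDH1L2, EPRS1 and LARS1, and the 6 above, beside 5.22%, were TXNDC11, ERO1B, EDEM2, DDIT4, VLDLR and SLC38A2.

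The tRNA synthetases, which charge tRNAs and are targets of ATF4, held the calls at 0.5 and 1 h without the block. Of 12 measured, 10 were positive at 0.5 h and 12 at 1 h, beside 53.2% and 52.6% of all genes. The list's medians without the block were 0.14 and 0.13 on the log2 scale, against 0.0098 and 0.0090 over all genes. MARS1 read 50.5, 57.8, 53.0 and 57.5 with DMSO, 66.0, 62.9, 65.2 and 63.1 at 0.5 h, 56.5, 63.4, 59.8 and 58.7 at 1 h, 61.9, 68.6, 59.6 and 59.8 at 2 h, 66.7, 62.7, 59.7 and 58.6 at 4 h and 55.3, 54.1 and 59.3 at 24 h (CPM), and its 0.5 h libraries all lay above the DMSO libraries. The log2 fold change of MARS1 was 0.23 ± 0.06 (SE; adjusted p = 0.0966) at 0.5 h. TARS1 was 0.27 ± 0.07 (adjusted p = 0.0773) and YARS1 0.22 ± 0.06 (adjusted p = 0.0893) above DMSO at 1 h. The calls of MARS1, TARS1 and YARS1 were lost with no filter on low counts and with scaling by total counts. They were also lost in fits of DMSO with 1 time point alone, and that of MARS1 with size factors by RLE. With the block GARS1 was 0.19 ± 0.03 (adjusted p = 0.00364) above DMSO at 1 h and AARS1 0.14 ± 0.04 (adjusted p = 0.0770) at 2 h. At 24 h the list's median was -0.01, with 4 of 12 positive and 0 called (smallest adjusted p 0.633, and 0.125 with the block).

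Other genes of the eIF2 and ATF4 branch were called singly. EIF2S2 and EIF2S3, which encode subunits of eIF2, were each 0.15 above DMSO on the log2 scale at 0.5 h with the block (adjusted p = 0.0338 and 0.0553). STC2, a secreted glycoprotein induced by stress, was 0.13 ± 0.03 (SE; adjusted p = 0.0135) and SLC3A2, a partner chain of amino acid transporters SLC7A11 among them, 0.13 ± 0.04 (adjusted p = 0.0925) above DMSO at 0.5 h with the block.

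Without the block, SLC38A2 was called at 4 h and DDIT4 and SLC38A2 at 24 h, and with it STC2 and CREB3L2 were called at 4 h as well. DDIT4, which encodes the mTORC1 inhibitor REDD1, read 19.4, 22.1, 18.4 and 19.7 with DMSO, 17.2, 20.3, 19.3 and 18.6 at 0.5 h, 16.1, 19.2, 19.4 and 15.7 at 1 h, 22.3, 23.7, 21.2 and 20.6 at 2 h, 20.7, 24.2, 22.00 and 23.2 at 4 h and 27.7, 27.6 and 24.3 at 24 h (CPM). All 3 DDIT4 libraries at 24 h lay above all DMSO libraries, and the log2 fold change was 0.42 ± 0.09 (SE; adjusted p = 0.0189). SLC38A2, a transporter of neutral amino acids, read 309, 306, 342 and 321 with DMSO, 322, 328, 339 and 330.4 at 0.5 h, 324, 331, 335 and 334 at 1 h, 322, 333, 342 and 349.8 at 2 h, 342, 371, 364 and 351 at 4 h and 355, 362 and 363 at 24 h (CPM). SLC38A2 was 0.16 ± 0.04 (adjusted p = 0.0602) above DMSO at 4 h and 0.17 ± 0.04 (adjusted p = 0.0626) at 24 h, without overlap of the groups at either time. The calls of DDIT4 and SLC38A2 without the block were lost with scaling by total counts and in fits of DMSO with 1 time point alone.

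Among the sensors and processing factors of the unfolded protein response, CREB3L2 and XBP1 were called with the block. CREB3L2, a relative of ATF6, was 0.15 ± 0.04 (SE; adjusted p = 0.0764) above DMSO at 2 h and 0.16 ± 0.04 (adjusted p = 0.0734) at 4 h. XBP1 read 345, 322, 337 and 301 with DMSO, 328, 305, 296 and 289 at 0.5 h, 325, 288, 284 and 293 at 1 h, 330.3, 283, 295 and 315 at 2 h, 362, 314, 308 and 308 at 4 h and 316, 292 and 324 at 24 h (CPM), and it was lower at 1 h in 4 of 4 pairs, with a log2 fold change of -0.14 ± 0.04 (adjusted p = 0.0941) with the block and -0.13 ± 0.06 (adjusted p = 0.528) without it. Its groups overlapped at every time point. The lists of folding factors, degradation factors and translocation and export factors (13, 8 and 17 genes measured) held 0 calls against DMSO at any time point in either edgeR fit, with smallest adjusted p-values of 0.543, 0.596 and 0.661 without the block and 0.240, 0.191 and 0.215 with it.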

How the data were processed

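PRO-seq libraries of T47D dTAG-TRPS1 Clone 28 were analysed from a table of raw counts per gene. The authors deposited these counts. Per the labels and the study's methods, reads were trimmed with cutadapt 1.8.1, deduplicated by molecular identifier, cleared of rDNA, aligned to hg38 with Bowtie2 2.4.4, handled with SAMtools 1.9 and counted with bedtools, and the annotation and the use of strand in counting are not given in the sources used here. A 24 h library numbered 1 was not analysed here. Of 60605 identifiers, 60463 matched GENCODE v44. Genes were filtered with filterByExpr (minimum count 10, minimum total 15), scaled by TMM and tested with edgeR 4.0.16 in R 4.3.3 (quasi-likelihood, 23 libraries together, 20 for the time course to 4 h) at a Benjamini-Hochberg adjusted p of 0.1 over all kept genes, and intervals are at 95%. DESeq2 1.42.0 was an alternative. The script was tested on simulated data. The labels give the replicate numbers, and the study's methods place the replicates at different times within a day. Equal replicate numbers were taken as collected together, which pairs the samples. Deviations from the group mean correlated with a mean r of 0.287 over 55 pairs of same-numbered libraries (37 over 0.1), within replicates 1 to 4 with a mean r of 0.578, 0.0896, 0.434 and 0.141 (10 of 10, 5 of 15, 15 of 15 and 7 of 15 pairs over 0.1), and -0.0825 over 165 other pairs. Named genes were the called members, filled up to 10 by p over the time course without the block, the 3 sensors, ATF4, DDIT3 and HSPA5, further genes called in either fit, and the 5 members with the smallest p over replicate numbers, and others were named after their values were seen. The members and lists were chosen with earlier results of these data known.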

Additional observations from a re-analysis of the deposited data

Results flagged for a closer look

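Of 80 groups of 4 libraries examined over the members described library by library, 9 held a library whose gap to its nearest neighbor exceeded Dixon's critical value of 0.829 of the group's range. Chance gives about 1 in 20 groups. High libraries were SEL1L at 4 h in replicate 1 (210.9 CPM), HSPA5 at 2 h (98.7 CPM) and 4 h (122 CPM) in replicate 1, ATF5 (21.5 CPM) and ATF4 (80.1 CPM) with DMSO in replicate 2, SLC7A11 at 1 h in replicate 2 (10.1 CPM) and DDIT3 at 2 h in replicate 2 (44.2 CPM). Low libraries were EIF2AK3 at 0.5 h in replicate 1 (69.5 CPM) and ATF4 at 1 h in replicate 4 (58.7 CPM).

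Effects at 24 h and 0.5 h differed by a test of the difference itself for 5 members. The difference on the log2 scale was -0.53 for SLC7A11 without the block and -0.53 with it. With the block it was -0.30 for ATF5, -0.20 for MTHFD2, 0.18 for SEL1L and 0.14 for SYVN1.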

How the results depend on the processing

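With the replicate block, the counts of members called at 0.5, 1, 2, 4 and 24 h were 2, 0, 1, 2 and 1, with 1 over the time course and 5 for 24 h against 0.5 h, where the fit without it gave 0 in the first 6 and 1 in the last. DESeq2 with the replicate block gave 2 (ATF5 and PPP1R15A), 0, 0, 2 and 1, with 3 (HSPA5, SEL1L and SLC7A11) over the time course and 6 for 24 h against 0.5 h. The block without the 4 h library of replicate 1, an alternative chosen after seeing the data, gave 3, 0, 1, 2 and 1, with 1 over the time course and 5 for 24 h against 0.5 h. Scaling by total counts gave 1 at 24 h. Leaving out each replicate number in turn moved the count for 24 h against 0.5 h between 0 and 2 without the block, and the blocked counts between 0 and 0 (0.5 h), 0 and 1 (2 and 4 h), 1 and 1 (24 h), 0 and 1 over the time course, and 0 and 5 for 24 h against 0.5 h. The count of members that differed between replicate numbers was 19, and 14 to 20 with each number left out.

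Of the further genes, 1, 2, 0, 1 and 2 were called at 0.5, 1, 2, 4 and 24 h. The block gave 6, 4, 5, 3 and 2, DESeq2 gave 4, 1 and 2 at 0.5, 2 and 4 h, and DESeq2 with the block gave 8, 6, 5 and 4 from 0.5 to 4 h. Size factors by RLE gave 0 at 0.5 h, no filter on low counts 0 at 0.5, 1 and 4 h and 1 at 24 h, and both total counts and fits of DMSO with 1 time point alone 0 at 0.5, 1, 4 and 24 h. Leaving out each number gave 0 to 1 at 0.5, 1, 4 and 24 h without the block, and with it 0 to 7, 2 to 3, 0 to 2, 1 to 3 and 1 to 3. The block without the 4 h library of replicate 1 gave 6, 7, 6, 3 and 4.

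Of 403 alternative values of 24 single log2 fold changes, 352 kept their direction and side of the threshold, 45 newly passed it, 5 no longer passed it and 1 changed sign: ERN1 at 24 h, with the block and without replicate 3 (0.032). Of all 170 contrasts of a member with DMSO, 6 had the opposite sign with the block: HSPA5, PDIA6, CALR, CANX and EDEM1 at 24 h and PSAT1 at 2 h. The cause of these shifts was not tested. Depth limits PSAT1, with 11.4 counts per library, and SLC7A11, with 100.1. The median interval reached 0.198 to either side on the log2 scale without the block and 0.138 with it. These intervals go with an unadjusted p of 0.05, so changes larger than that could also miss the adjusted threshold. By edgeR without the block, SLC7A11 at 4 h (0.40, adjusted p = 0.105) and ASNS at 0.5 h (0.29, adjusted p = 0.495) were not called.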
